A study of Physcomitrium patens with 47 samples.

Results

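The genes of the moss Physcomitrium patens whose identifiers (IDs) begin with Pp3c25_ or Pp3c27_ are described here across knockout lines and wild type (WT). Counts were scaled to counts per 1000000 counts in genes of the library (CPM), and a gene was a member when its mean over all 18 WT libraries was 1 CPM or more. This gave 370 members of the 658 Pp3c25 IDs and 247 members of the 420 Pp3c27 IDs, 617 of the 32926 genes in the table. The pair of prefixes had been singled out because their genes stood high in line 48 at ZT2, so values of line 48 at that time are given as a description and support nothing by themselves. Values of the other lines and times were also known when the prefixes were chosen, so they are a description too. The rule for members used the WT libraries only through their mean over all times.

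The study measured mRNA by 3′ tag sequencing (QuantSeq), in which reads come from the 3′ end of a transcript, in lines that lack a respiratory gene. Lines 48 and 46 carry a resistance cassette in NDUFA5, a subunit of complex I of the mitochondrial respiratory chain (NDUFA5 KO), and lines 152 and 150 carry one in COX11, an assembly factor of complex IV (COX11 KO). Each line is 1 independent transformant line, and no line with a cassette at a neutral site is among the samples. Plants of all groups, a mixture of protonema and young gametophores, were grown in nitrate medium under light and dark periods of equal length and frozen at ZT0, ZT2 or ZT6 (zeitgeber time, the hours since the lights came on), with the ZT0 plants kept dark until freezing. Line 48 had 2 libraries at each time. Line 46 had 2, 3 and 3 libraries at ZT0, ZT2 and ZT6, line 152 had 2, 2 and 3, line 150 had 3, 3 and 2, and WT had 6, 4 and 8. The library of replicate 3 of line 46 at ZT6 is line 46 by its title, which was followed, and line 48 by another of its labels.

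In the gene naming of the P. patens genome, the number after Pp3c stands for a chromosome, and the last number grows along it. The moss is haploid for most of its life, so a leafy shoot carries a single set of these chromosomes. Complex I passes electrons from NADH into the respiratory chain and complex IV hands them to oxygen. Neither an annotation with these IDs nor gene names could be used here (0 of the 32926 IDs were found in the reference), so prefix and ID order are taken from the IDs alone, the targeted genes were not checked by name, tissue markers were not checked, and gene functions are not given.

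Total counts in genes lay between 4060126 and 10349601 per library, with a median of 5659236. The members were ordinary in level. The median of their mean WT level was 16.7 CPM for Pp3c25 (range 1.07 to 888.7) and 18.3 CPM for Pp3c27 (1.01 to 1331), beside 17.5 CPM for genes of the other 24 Pp3c prefixes chosen by the same minimum. Those 24 leave out Pp3c2, whose genes had a median above WT in every knockout library, by 0.13 on the log2 scale in the lowest, and are given beside the members below. ID numbers of members ran from 30 to 15450 in Pp3c25 and from 60 to 8820 in Pp3c27. Of the IDs, 127 of Pp3c25 and 68 of Pp3c27 had no count in any library. At the minimum, Pp3c25_1390 (1.07 CPM) and Pp3c27_5960 (1.01 CPM) were just inside, and Pp3c25_8070 (0.964 CPM) and Pp3c27_5270 (0.959 CPM) just outside.

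In each library, the log2 CPM of a gene (totals scaled by TMM, trimmed mean of M values, prior count 2) was set against the mean of the WT libraries of the same time, and the median over the members of a prefix was taken. In the line 48 libraries at ZT2 the median of Pp3c25 was 0.81 in replicate 1 and 0.51 in replicate 2. That of Pp3c27 was 0.80 in replicate 1 and 0.55 in replicate 2. As ratios to WT these are 1.76 and 1.42 for Pp3c25, and 1.74 and 1.46 for Pp3c27. Both prefixes were thus raised by about the same amount within a library, and more in replicate 1 than in replicate 2. Over the other 45 libraries the median lay between -0.12 and 0.04 for Pp3c25 and between -0.24 and 0.14 for Pp3c27, and neither range reached a line 48 ZT2 library. In the line 48 ZT2 libraries the medians of the other 24 prefixes lay between -0.13 and 0.13.

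**Figure D1:**
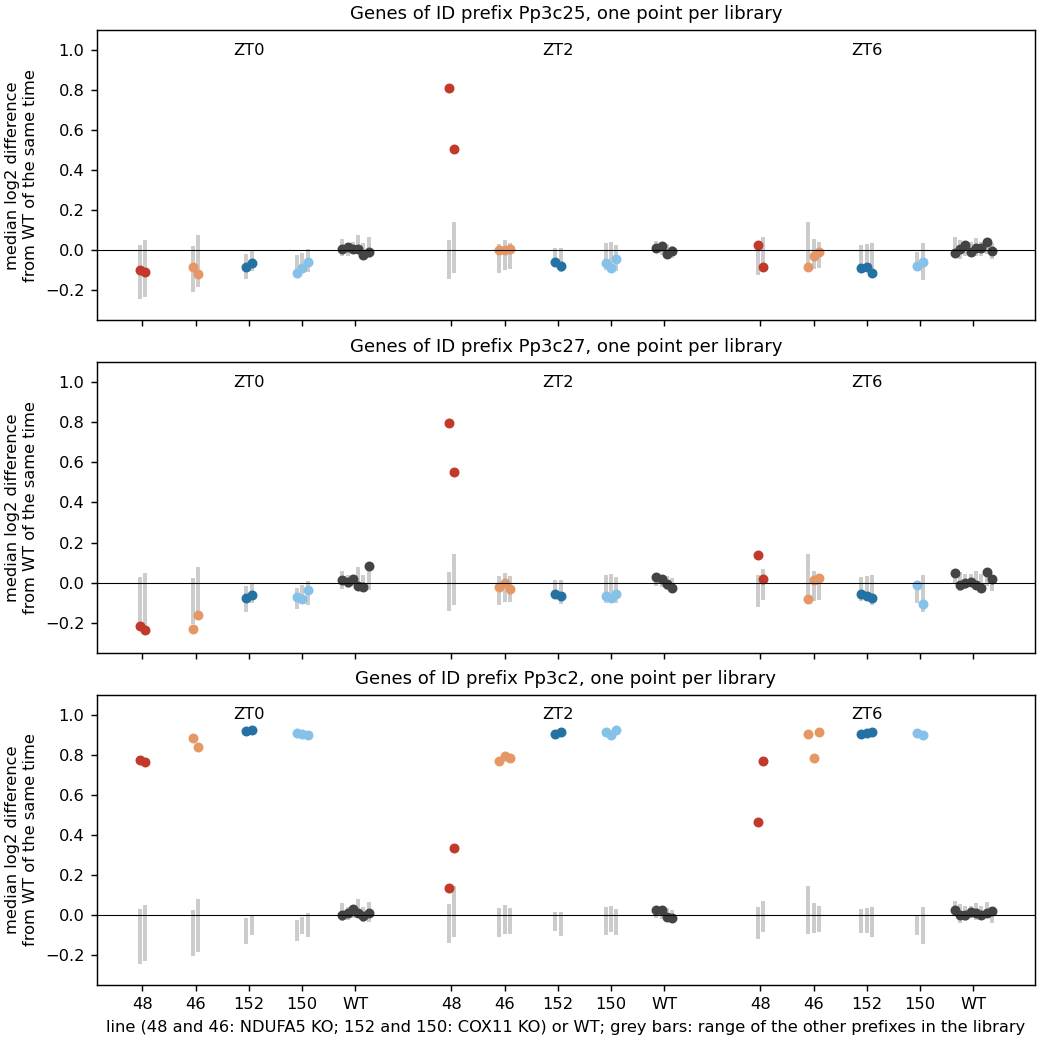
Median log2 difference from WT of the same time (y axis), one point per library, for genes of Pp3c25 (top), Pp3c27 (middle) and Pp3c2 (bottom), by line and time (x axis). Grey bars span the medians of the other 24 prefixes in the same library. The line 48 points at ZT2 lie at 0.51 to 0.81 for Pp3c25 and Pp3c27 and at 0.13 and 0.34 for Pp3c2, whereas the other 45 libraries lie near 0 for the first pair of prefixes.

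Line 48 gave no such values at the other times. Its ZT2 libraries carry sample codes that begin with A, and its ZT0 and ZT6 libraries codes that begin with Z. Within line 48, time and code letter thus cannot be told apart. At ZT0 the line 48 medians were -0.10 and -0.11 for Pp3c25 and -0.22 and -0.24 for Pp3c27. Line 46, the other NDUFA5 KO line, had -0.08 and -0.12 for Pp3c25 and -0.23 and -0.16 for Pp3c27 at that time. At ZT6 the line 48 medians were 0.03 and -0.08 for Pp3c25, and 0.14 and 0.02 for Pp3c27. Replicate 1 of line 48 at ZT6 held the highest Pp3c27 median outside ZT2. At ZT2 line 46 lay between -0.03 and 0.01 for both prefixes, and lines 152 and 150 lay below 0 for both prefixes at all 3 times, with group means of -0.10 to -0.06.

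The sign of the medians in lines 152 and 150 turned with the scaling. With library totals in place of TMM, the fitted log2 fold change over all genes had a median between 0.15 and 0.23 in lines 152 and 150, and those of Pp3c25 and Pp3c27 were then between 0.06 and 0.15 in these lines. Relative to the median of the other 24 prefixes in the same library, the medians lay between -0.08 and -0.01 for Pp3c25 and between -0.06 and 0.03 for Pp3c27 in these lines. In line 48 at ZT2 the medians were 0.68 and 0.70 with TMM and 0.81 and 0.84 with library totals, where all genes had 0.02 and 0.15. With TMM factors computed without Pp3c2, Pp3c25 and Pp3c27 they were 0.63 and 0.65, where all genes had -0.03.

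The share of all counts in genes that fell in Pp3c25 members was 2.95% and 2.48% in the line 48 libraries at ZT2, against 1.72 ± 0.0412% in WT at ZT2 (SD, n = 4). Pp3c27 members held 2.04% and 1.78% in line 48, against 1.16 ± 0.0171% in WT. The other 45 libraries held 1.44% to 1.76% in Pp3c25 and 0.945% to 1.57% in Pp3c27. Total depth did not set the line 48 ZT2 libraries apart, at 6048100 and 5187493 counts in genes. Both carry a sample code that begins with A, as do all 4 WT libraries at ZT2. RNA came from whole plants, so more cells with a high level and more RNA per cell cannot be told apart.

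Most members took part in the shift. Above the WT mean at ZT2 were 85.1% of Pp3c25 members in replicate 1 of line 48 and 76.5% in replicate 2, and 83.8% and 77.7% of Pp3c27 members. In genes of the other 24 prefixes the same shares were 47.9% and 48.1%. The interquartile range of the Pp3c25 values ran from 0.39 to 1.19 in replicate 1 and from 0.04 to 0.92 in replicate 2. For Pp3c27 it ran from 0.30 to 1.11 and from 0.05 to 0.92. Replicate 1 had the higher value in 308 of 370 Pp3c25 members and in 188 of 247 Pp3c27 members, with median differences between the replicates of 0.28 and 0.23. Among genes of the other 24 prefixes 52% were higher in replicate 1.

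**Figure D2:**
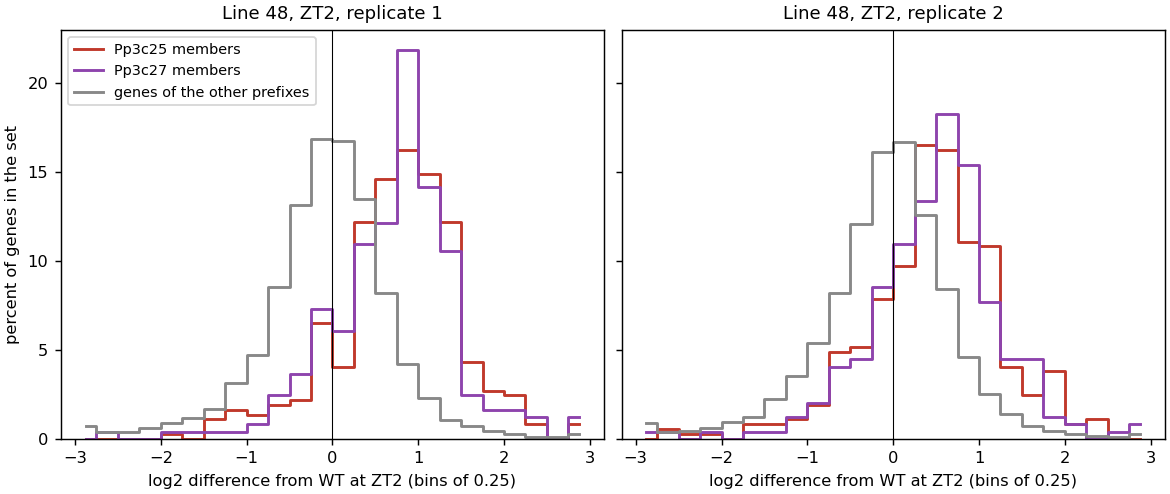
Percent of genes in each set (y axis) by log2 difference from WT at ZT2 (x axis, bins of 0.25) in the 2 line 48 libraries. Members of Pp3c25 and Pp3c27 form a single peak right of 0 in both libraries, further right in replicate 1, and genes of the other 24 prefixes peak at 0.

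Pp3c2 genes were above WT in the same libraries, but by less than in the other knockout libraries. Their median was 0.13 and 0.34 in line 48 at ZT2, against 0.77 to 0.91 in the 8 line 46 libraries, 0.90 to 0.92 in line 152 and 0.90 to 0.92 in line 150. Replicate 1 of line 48 at ZT2, the one with the higher Pp3c25 and Pp3c27 medians, had the lower Pp3c2 median. At ZT6 line 48 had 0.46 in replicate 1 and 0.77 in replicate 2, and at ZT0 0.77 and 0.76. Replicate 1 at ZT6 again combined the lower Pp3c2 median with the higher Pp3c25 and Pp3c27 medians. What part the Pp3c2 level has in the values of the members was not tested.

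Set against the mean of line 46 at ZT2, the Pp3c25 median was 0.92 in replicate 1 and 0.61 in replicate 2 of line 48, and the Pp3c27 median 0.85 and 0.66. Of the Pp3c25 members, 93% and 87.8% were above line 46, and of the Pp3c27 members 91.1% and 88.7%. At ZT6 the Pp3c25 medians against line 46 were 0.14 and -0.001, and the Pp3c27 medians 0.15 and 0.04. At ZT0 all 4 medians lay between -0.003 and 0.04. The 3 line 46 libraries at ZT2 carry a sample code that begins with Z, whereas the ZT2 values against WT are within one letter. Other groups hold both letters, and with the letter as a covariate the test of line 48 against line 46 at ZT2 called 304 members in place of 356 (7.7% of all genes higher and 7.9% lower without the covariate).

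The shift covered the whole ID range of both prefixes. Members were taken in ID order in windows of 50, the last window of a prefix holding the remainder (70 and 97 members). In replicate 1 of line 48 at ZT2 the 7 windows of Pp3c25 had medians of 0.71 to 0.98 and the 4 windows of Pp3c27 medians of 0.73 to 0.89. In replicate 2 they were 0.41 to 0.70 and 0.45 to 0.65. The window of highest median was the first of Pp3c25 (Pp3c25_30 to Pp3c25_1300) in replicate 1 and the third (Pp3c25_3310 to Pp3c25_5510) in replicate 2. In both replicates the first 3 windows of Pp3c25 were above the last 4.

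**Figure D3:**
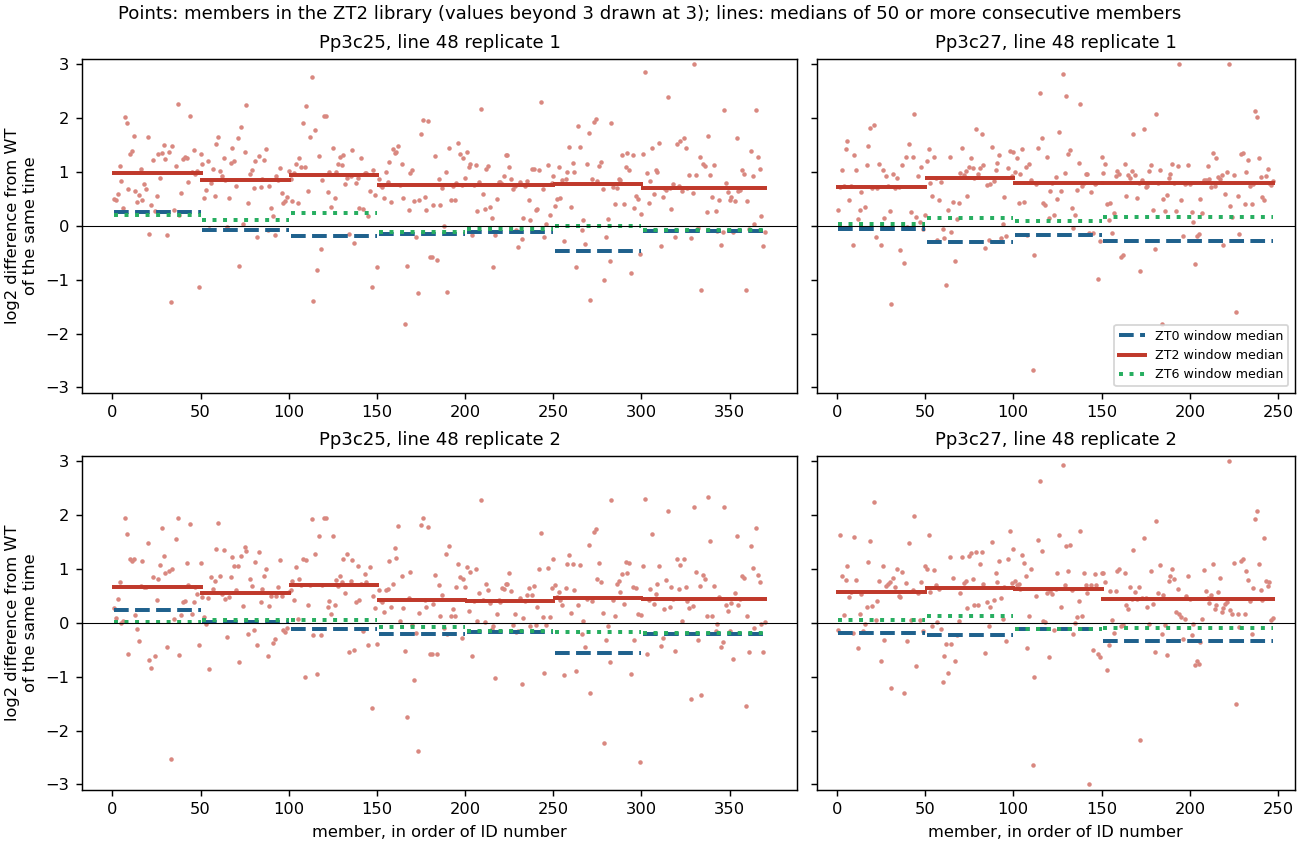
Log2 difference from WT of the same time (y axis) of each member in the line 48 ZT2 libraries (points), in order of ID number (x axis), and medians of windows of 50 or more consecutive members at ZT0, ZT2 and ZT6 (lines). The ZT2 window medians stay above 0.41 in every window of both prefixes and replicates, and the ZT0 and ZT6 medians lie at 0.26 or lower.

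In each of the 11 windows both line 48 ZT2 libraries were above all 45 other libraries. The closest approach was in the first Pp3c25 window, where replicate 2 had 0.66 and replicate 2 of line 46 at ZT0 had 0.46. At ZT0 the windows of line 48 differed more among themselves, from 0.26 in that first window to -0.55 in the sixth (Pp3c25_9580 to Pp3c25_12650), and line 46 at ZT0 had 0.46 and -0.45 as its extremes. Above the WT mean in both line 48 ZT2 libraries were 282 of 370 and 186 of 247 members (76.2% and 75.3%). The same held for 39.1% of genes of the other 24 prefixes. Above it in neither library were 54 Pp3c25 and 34 Pp3c27 members. Among those above it in neither, the longest run of neighbours was 2 members in Pp3c25 (Pp3c25_6070 and Pp3c25_6140) and 3 in Pp3c27 (from Pp3c27_2320 to Pp3c27_2380).

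The shift was present at every level of expression. Members were divided by mean WT level into 3 groups of about equal size. Pp3c25 members of the low group (1.07 to 9 CPM) had a median of 0.89 in replicate 1 and 0.64 in replicate 2 of line 48 at ZT2. The middle group (9.02 to 28.7 CPM) had 0.75 and 0.46, and the high group (29.8 to 888.7 CPM) 0.78 and 0.45. For Pp3c27 the low group (1.01 to 11.1 CPM) had 0.80 and 0.62, the middle 0.84 and 0.60, and the high group (30.8 to 1331 CPM) 0.74 and 0.39. In replicate 2 the median of the high group was the lowest of the 3 in both prefixes.

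Differential expression was tested over all 18902 genes that passed a filter on low counts, with edgeR's quasi-likelihood test and a false discovery rate (FDR, Benjamini-Hochberg) of 0.05 in each comparison. All 617 members passed the filter, which used all groups. In line 48 at ZT2, 188 of 370 Pp3c25 members were called higher and 10 lower than in WT, and 134 and 6 of 247 Pp3c27 members. Over all genes, 14.9% were called higher and 13.6% lower. Both line 48 libraries were above every WT library in 240 Pp3c25 and 158 Pp3c27 members, where 27.4% of all genes were, and below every WT library in 23 and 18, where 25.6% of all genes were. These counts restate the choice of the prefixes and are not evidence for it. Without replicate 1 of line 48 at ZT2, 199 members were called in place of 338.

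At ZT0 and ZT6 the members of line 48 were called about as often as all genes, which include Pp3c2. At ZT0, 97 Pp3c25 members were higher and 112 lower, and 56 and 87 Pp3c27 members, beside 26% and 28.2% of all genes, which for Pp3c27 gives 22.7% higher and 35.2% lower. At ZT6, 45 Pp3c25 members were higher and 38 lower, and 33 and 26 Pp3c27 members, beside 12.3% and 10.7% of all genes. Over the 617 members the shares higher and lower were 24.8% and 32.3% at ZT0 and 12.6% and 10.4% at ZT6. Genes of the other 24 prefixes had 24.3% and 30.9% at ZT0 and 8.36% and 12.1% at ZT6. Beside these genes, members were thus called higher more often at ZT6. With library totals as scaling the higher and lower calls over both prefixes became 121 and 236 at ZT0 (153 and 199 with TMM) and 101 and 50 at ZT6 (78 and 64), with the median of all genes then at -0.27 and 0.12. Without replicate 2 of line 48 at ZT6 the 142 calls at that time became 65, and without replicate 1 they became 71.

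Line 46 had 130 members higher and 195 lower than WT at ZT0, where 24.9% and 27.9% of all genes were called. At ZT2 it had 116 and 152 (22.3% and 21.5% of all genes), and at ZT6 80 and 127 (17.5% and 16.7%). These are 21.1% and 31.6%, 18.8% and 24.6%, and 13% and 20.6% of the 617 members, close to the 22.6% and 30.6%, 19.1% and 23.6%, and 12.2% and 18.6% of the genes of the other 24 prefixes. With library totals the split was 103 higher and 235 lower at ZT0 and turned to 144 higher and 78 lower at ZT6, where the median of all genes was then -0.225 and 0.187. With the library of the conflicting labels placed in line 48, 187 members were called in line 48 at ZT6 (142 by title) and 142 in line 46 (207 by title).

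Line 152 had 51 members higher and 99 lower at ZT0 (12.5% and 14.5% of all genes), 30 and 64 at ZT2 (9.1% and 9.3%), and 92 and 160 at ZT6 (20.1% and 19.7%). Line 150 had 70 and 131 at ZT0 (15.9% and 19.4%), 47 and 106 at ZT2 (12.6% and 14.7%), and 54 and 86 at ZT6 (13.4% and 11.8%). The counts of line 152 are 8.27% and 16%, 4.86% and 10.4%, and 14.9% and 25.9% of the 617 members. Genes of the other 24 prefixes had 7.89% and 16.2%, 4.6% and 10.4%, and 16.4% and 21.7%. For line 150 the members had 11.3% and 21.2%, 7.62% and 17.2%, and 8.75% and 13.9%. The other 24 prefixes had 10.8% and 21.7%, 8.29% and 16.3%, and 9.46% and 13.3% there. With library totals the splits reversed to 102 higher and 50 lower, 54 and 47, and 153 and 102 in line 152, and to 150 and 73, 102 and 73, and 105 and 54 in line 150, with the median of all genes moved up as given above. The tests of the 4 lines share the WT libraries of a time, so their counts are not independent of each other. Single libraries moved some of these counts. The 94 calls of line 152 at ZT2 became 24 without its replicate 1 and 51 without its replicate 2, and its 150 calls at ZT0 became 65 without replicate 2. The 201 calls of line 150 at ZT0 became 133 without its replicate 2, and its 140 calls at ZT6 became 62 without replicate 2.

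**Figure D4:**
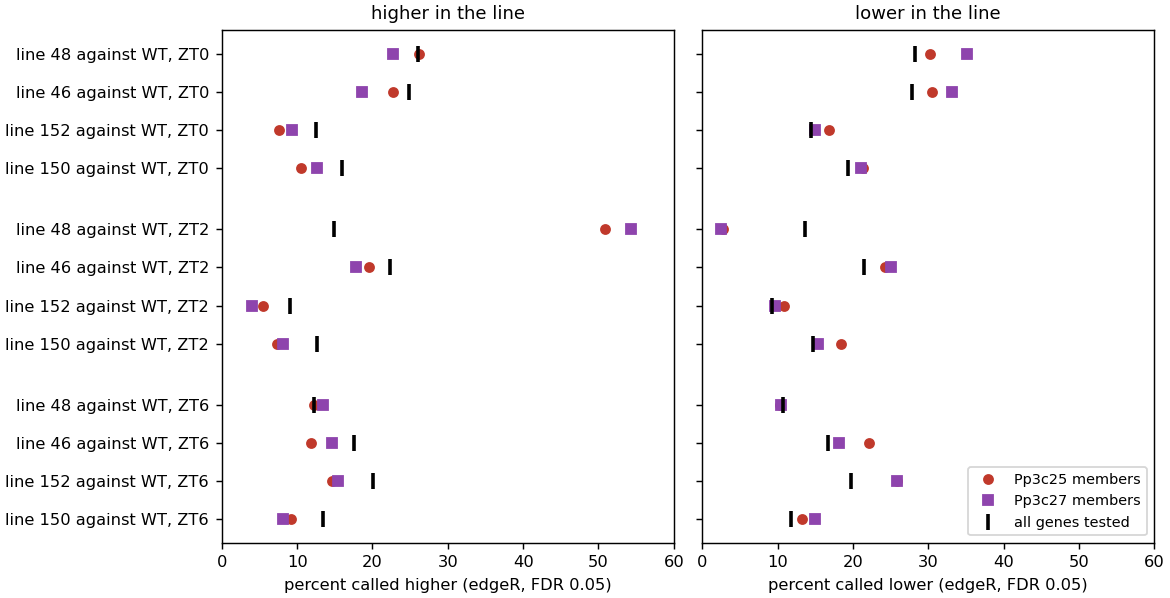
Percent of members called higher (left) and lower (right) than WT by edgeR at an FDR of 0.05 (x axis), for each line and time (y axis), with the percent of all 18902 genes tested as a black bar. Line 48 at ZT2 stands at 50.8% and 54.3% higher for the 2 prefixes where all genes stand at 14.9%, and the other line and time combinations lie within 10 percentage points of all genes.

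Between the 2 NDUFA5 KO lines, 342 members were higher and 14 lower in line 48 than in line 46 at ZT2, where 7.7% and 7.9% of all genes were called. The median log2 fold change was 0.79 for Pp3c25 and 0.77 for Pp3c27, beside 0.03 over all genes. Of the 322 members called higher against WT and the 342 called higher against line 46, 229 were the same genes, 71.1% of the first list and 67% of the second, and the lists share the line 48 libraries. Without replicate 1 of line 48 at ZT2 the 356 calls became 137. At ZT6 edgeR called 0 members and 0 of all genes (0% in either direction). DESeq2 called 0 members too, and by edgeR 40 members and 1085 genes had an unadjusted p under 0.05.

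At ZT0, 2 members were higher in line 48 than in line 46 and none lower, beside 0.196% and 0.037% of all genes. Both are Pp3c25 genes, named here after their values were seen. Pp3c25_2610 had 72 and 78.7 CPM in line 48, against 35 and 38.9 CPM in line 46. Pp3c25_14850 had 1953 and 2343 CPM in line 48, against 1116 and 953 CPM in line 46. The log2 fold changes were 1.02 ± 0.19 and 1.05 ± 0.23 (SE), with edgeR adjusted p of 0.0107 and 0.0332. The calls became 0 without either replicate of line 48 or without replicate 2 of line 46 at ZT0, 5 without replicate 1 of line 46, and 7 with DESeq2.

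The difference of line 48 from WT at ZT2 was also set against its difference at the other times. Against ZT0, the difference was larger in 296 members and smaller in 25, where 15.4% and 14.7% of all genes were called. Against ZT6 it was larger in 141 and smaller in 0, where 2.21% and 1.79% were called. The medians were 0.78 and 0.93 against ZT0 and 0.71 and 0.67 against ZT6 for Pp3c25 and Pp3c27, beside 0.13 and -0.002 over all genes. These comparisons use the same line 48 ZT2 libraries that singled out the prefixes. Time and code letter coincide within line 48 (A at ZT2, Z at ZT0 and ZT6), so the 2 cannot be told apart there. With the letter as a covariate over all groups, 325 members were called against ZT0 (321 without it) and 142 against ZT6 (141). The count of 141 became 38 without replicate 1 of line 48 at ZT2 and 42 without replicate 2 of line 48 at ZT6.

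CPM of single libraries are given with totals scaled by TMM. The most abundant members of each prefix are described next. Pp3c25_1430, the highest of Pp3c25, had 1251 and 941 CPM in line 48 at ZT2, against 881, 925, 873 and 802 CPM in WT. Both line 48 values were above all 4 WT values. Line 46 had 730, 650 and 704 CPM at that time, below all 4. The log2 fold change against WT was 0.33 ± 0.14 (SE) in line 48 and -0.33 ± 0.12 in line 46. For line 48 it was 0.087 without replicate 1 and 0.501 without replicate 2, and only the second passed the test (edgeR adjusted p = 0.0623 with both, 0.788 without replicate 1 and 0.041 without replicate 2). Pp3c27_860 had 1578 and 1210 CPM in line 48 at ZT2, again above the 4 WT libraries (960, 1090, 965 and 874 CPM). Its call at ZT2 was lost without replicate 1 of line 48 (log2 fold change 0.291, edgeR adjusted p = 0.28). Unlike Pp3c25_1430 it was also higher in line 48 at ZT0, with 1555 and 1522 CPM against 980 to 1357 CPM in 6 WT libraries (median 1137; edgeR adjusted p = 0.00824). Line 46 was above all 6 as well, with 1508 and 1476 CPM.

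Of the other abundant members, Pp3c27_2310 and Pp3c25_14870 were far below WT in line 48 at ZT0 and not at ZT2. Pp3c27_2310 had 135 and 164 CPM in line 48 at ZT0, against a median of 841 CPM in WT (382 to 1382), and 1021 and 538 CPM in line 48 at ZT2, against 541, 644, 586 and 563 CPM in WT. The 2 line 48 libraries at ZT2 lay on either side of the WT range. Line 46 had 209, 204 and 187 CPM at ZT2, below all 4 WT libraries. Pp3c27_2340 had 1024 and 780 CPM in line 48 at ZT2, against 1155, 1240, 1231 and 1177 CPM in WT, and 465, 349 and 403 CPM in line 46. Here line 48 lay between line 46 and WT with no overlap. Pp3c25_14870 had 694 and 448 CPM in line 48 at ZT2, against 487, 546, 567 and 405 CPM in WT, so the groups overlapped. At ZT0 it had 241 and 253 CPM in line 48, against a median of 647 CPM in WT (435 to 747; log2 fold change -1.33 ± 0.20, edgeR adjusted p = 8.8e-07). Line 46 was below every WT library at ZT0 as well, with 305 and 335 CPM.

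Pp3c25_760 was lower than WT in all 4 lines at all 3 times, with edgeR adjusted p of at most 3.18e-05 in the comparisons other than that of line 48 at ZT2. At ZT2 it had 323 and 148 CPM in line 48, 63.3, 62.3 and 71.9 CPM in line 46, 137 and 192 CPM in line 152 and 106, 147 and 86.0 CPM in line 150, against 1152, 920, 737 and 696 CPM in WT. No line overlapped WT, and line 48 was above line 46. Its log2 fold change against WT at ZT2 was -1.89 ± 0.40 in line 48 and -3.73 ± 0.37 in line 46. That of line 48 was -2.59 without its replicate 1 and -1.46 without its replicate 2. At ZT0 line 48 had 42.4 and 46.7 CPM, below the 73.9 and 63.3 CPM of line 46, against 297 to 693 CPM in WT.

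Members were named by a rule that took, in each comparison of a line with WT, called genes of average log2 CPM above 1 whose libraries all lay outside the WT range, ranked by fold change. Pp3c27_7650 led the genes that were higher in line 48 at ZT2 and ZT6 and in line 46 at ZT0 and ZT6. In line 48 it had 1485 and 1042 CPM at ZT0, 1083 and 1257 CPM at ZT2 and 127 and 73.1 CPM at ZT6. Line 46 had 935 and 1605 CPM at ZT0, 235, 545 and 368 CPM at ZT2 and 51.3, 107 and 92.5 CPM at ZT6. WT had medians of 89.6, 61.3 and 11.2 CPM at the 3 times and at most 141, 124 and 20.5 CPM. Both NDUFA5 KO lines were thus above every WT library at each time, and at ZT2 line 48 was also above line 46. Its log2 fold change against WT was 3.97 ± 0.42 in line 48 at ZT0 and 3.98 ± 0.42 in line 46 (edgeR adjusted p = 3.36e-10 and 3.54e-10). The COX11 KO lines were also above every WT library at ZT0, with 157 to 262 CPM in line 152 and 159 to 265 CPM in line 150 (log2 fold changes 1.38 ± 0.43 and 1.5 ± 0.39, edgeR adjusted p = 0.0154 and 0.00226). At ZT2 line 152 was lower than WT, with 21.4 and 22.6 CPM (log2 fold change -1.68 ± 0.54, edgeR adjusted p = 0.0261), and line 150 overlapped WT with 34.5 to 125 CPM. At ZT6 neither passed the test.

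Pp3c25_14630 and Pp3c27_8200 were the first of the members higher in line 48 at ZT0. Pp3c25_14630 had 176 and 164 CPM in line 48, 32.1 and 59.2 CPM in line 46, 146 and 209 CPM in line 152, and 197, 157 and 110 CPM in line 150 at ZT0, against 1.99 to 4.69 CPM in WT (median 2.86). All 9 knockout libraries were above all 6 WT libraries. In WT it was itself higher at ZT2 (51.1, 48.8, 83.6 and 46.4 CPM) than at ZT0, by a log2 fold change of 4.24 ± 0.76 (edgeR adjusted p = 1.39e-05). At ZT6 it varied from 1.28 to 92.8 CPM in WT, and line 48 had 14.1 and 168 CPM. Pp3c27_8200 had 39.1 and 45.9 CPM in line 48 and 56.6 and 18.9 CPM in line 46 at ZT0, against 0.731 to 4.52 CPM in WT (median 2.45; log2 fold change 4.02 ± 0.42 in line 48, edgeR adjusted p = 2.65e-10). The COX11 KO lines were above every WT library at ZT0 too, with 8.66 to 17.1 CPM in line 152 and 15.4 to 18.5 CPM in line 150.

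**Figure D5:**
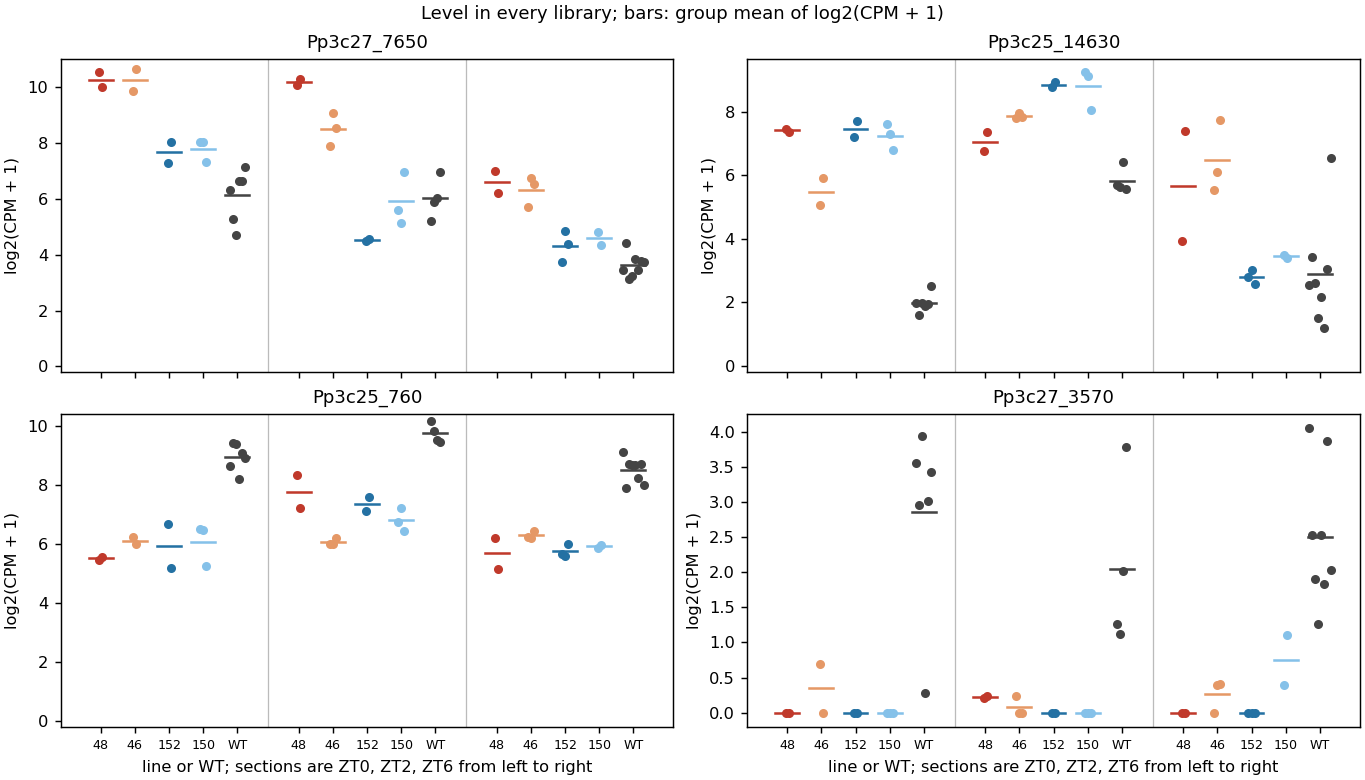
Level as log2(CPM + 1) (y axis) in every library of each line and WT (x axis, sections for ZT0, ZT2 and ZT6) for 4 members, with bars for group means. Pp3c27_7650 is above WT in lines 48 and 46 at each time, Pp3c25_14630 is above WT in all lines at ZT0, Pp3c25_760 is below WT in all lines with line 48 nearest to WT at ZT2, and Pp3c27_3570 is near 0 in the lines.

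Below Pp3c27_7650, the next of the higher members of line 48 at ZT2 and at ZT6 had low levels. Pp3c25_14209 had 11.8 and 3.30 CPM in line 48 at ZT2, against 0.176, 1.97, 0.306 and 0.186 CPM in WT, and 0.713, 0.488 and 0.553 CPM in line 46. The 2 line 48 libraries differed by several fold but both lay above WT and line 46. Its log2 fold change against WT was 3.54, 2.32 without replicate 1 of line 48, where the call was lost (edgeR adjusted p = 0.107), and 4.93 without replicate 2 of WT. Pp3c25_13760 had 4.98 and 5.71 CPM in line 48 at ZT6, against 0.734 to 2.35 CPM in WT (median 1.30; log2 fold change 1.96 ± 0.44, edgeR adjusted p = 0.00115). It was also called higher in line 46 at all 3 times and in lines 152 and 150 at ZT0.

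In the COX11 KO lines Pp3c25_14559 led the higher members at ZT2 and ZT6. At ZT2 it had 24.6 and 34.4 CPM in line 152 and 50.7, 28.9 and 47.9 CPM in line 150, against 3.0, 1.77, 3.06 and 5.76 CPM in WT. No knockout library overlapped WT, and the log2 fold changes were 3.11 ± 0.44 and 3.64 ± 0.41 (edgeR adjusted p = 2.23e-06 and 1.5e-08). At ZT0 it was higher in lines 152 and 150 (log2 fold changes 1.67 ± 0.36 and 1.75 ± 0.32) and lower in lines 48 and 46 (-1.50 ± 0.50 and -1.44 ± 0.46). At the later times lines 48 and 46 were above WT too, with 10.8 and 17.4 CPM in line 48 and 7.37 to 15.6 CPM in line 46 at ZT2, and 33.4 and 45.9 CPM in line 48 and 32 to 46 CPM in line 46 at ZT6, against 9.25 to 16.9 CPM in WT at ZT6. These log2 fold changes were 2.04 ± 0.47 and 1.66 ± 0.44 at ZT2 and 1.67 ± 0.34 and 1.66 ± 0.30 at ZT6 (edgeR adjusted p at most 0.00239). Pp3c25_11360 led line 46 at ZT2 with 323, 141 and 265 CPM, against 15.5, 19.7, 16.5 and 10.6 CPM in WT (log2 fold change 3.96 ± 0.42, edgeR adjusted p = 1.28e-09). Line 48 had 58.5 and 75.4 CPM at ZT2, above WT and below line 46, so that it was among the 14 members called lower in line 48 than in line 46.

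The members named as lower were rare transcripts in the lines. Pp3c27_3570 had 0 counts in both line 48 libraries at ZT0, and at ZT0 also in the 2 line 152 and 3 line 150 libraries, against 0.220 to 14.4 CPM in WT (median 8.42, 231 counts over 6 libraries). The level was at least 24.1-fold lower in line 48, at least 29.4-fold lower in line 152 and at least 44.9-fold lower in line 150, with 3 counts over the group as floor. At ZT6 line 48 again had 0 counts, at least 21.9-fold lower than WT (1.41 to 15.6 CPM). With 1 library of the line left out the floor is set against a smaller depth, and these limits became 11.1 and 13.1 for line 48 at ZT0 (without replicates 1 and 2), 17.9 and 11.6 for line 152, 29.4 and 27.5 for line 150 (without replicates 2 and 3), and 12.1 and 9.79 for line 48 at ZT6. The calls of line 48 at ZT6 without either replicate (edgeR adjusted p = 0.0687 and 0.0958) and of line 152 at ZT0 without replicate 2 (0.0668) were then lost. At ZT2 line 48 had 2 counts in its 2 libraries and the 4 WT libraries had 103, a depth-scaled ratio of 0.0368 (exact 95% counting interval 0.0044 to 0.136). Replicate 4 of WT held 69 of the 103 counts, and without it the ratio was 0.085 (0.0099 to 0.332) and the call was lost (edgeR adjusted p = 0.105, against 0.0249 with it), as it was without either line 48 library (0.144 and 0.146). These intervals and floors cover counting error only.

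Pp3c25_10500 had 0 counts in line 48 at ZT0, against 181 counts over the 6 WT libraries (0.439 to 13 CPM), and was at least 18.9-fold lower (8.68-fold and 10.2-fold without replicates 1 and 2 of line 48). At ZT2 it had 0.966 and 1.04 CPM in line 48, against 2.12, 1.18, 2.14 and 14.7 CPM in WT. In line 46 it had 1 count over 3 libraries at ZT2, a ratio to WT of 0.0119 (0.000299 to 0.0677), and in line 150 it had 0, at least 32.9-fold lower. Replicate 4 of WT held 79 of the 111 WT counts. Without it the ratio in line 46 was 0.0315 (0.000773 to 0.188), and line 150 was at least 12.4-fold lower. Without replicate 2 of line 150 that limit was 21.6, and the 1 count of line 46 lay in its replicate 1, without which it was at least 18.9-fold lower (0.0185 without replicate 2). Pp3c25_6300 had 0.805 and 0.174 CPM in line 48 at ZT2, against 3.70, 1.38, 2.90 and 2.23 CPM in WT, and was called lower in both NDUFA5 KO lines at all 3 times and in neither COX11 KO line. Its call in line 48 at ZT2 was lost without replicate 2 of line 48 (log2 fold change -1.67, edgeR adjusted p = 0.136; -2.32 with both). Whether the lines of the 2 genotypes differ in it was not tested. Pp3c25_6070, named for line 150 at ZT6, had 2 counts there against 308 in WT, a ratio of 0.0222 (0.00268 to 0.081). Both counts lay in replicate 1 of line 150. The ratio was 0.0402 without replicate 2, and without replicate 1 the level was at least 13.4-fold lower. Pp3c25_6070 was not low in line 150 alone. At ZT6 it had at most 2.00 CPM in line 152, 0.770 CPM in line 46 and 0.672 CPM in line 48, against at least 2.85 CPM in WT.

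In 2 further genes that were low in the lines, line 48 at ZT2 stood apart from line 46. Pp3c27_870 had 20.3 and 26.4 CPM in line 48 at ZT2, against 2.29, 2.56, 7.18 and 17.3 CPM in WT, and 0.713, 0.651 and 0.184 CPM in line 46. Line 48 was above every WT library and line 46 below every one. At ZT0 line 48 had 0.414 and 1.47 CPM, below the WT range of 1.54 to 9.90 CPM, as did line 46 with 0.624 and 0.689 CPM. In line 152 at ZT6 it had 0 counts in 3 libraries against 335 counts in 8 WT libraries and was at least 48.3-fold lower (31.5-fold without replicate 2 of line 152). Pp3c25_15120 had 3.87 and 2.95 CPM in line 48 at ZT2, against 9.52, 11, 10.1 and 7.06 CPM in WT, and 0, 0.488 and 0.184 CPM in line 46. It was named for line 48 at ZT6, where it had 0 and 1.18 CPM against 5.99 to 13.1 CPM in WT.

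Between times in WT, whose libraries entered the rule for members only through their mean, the members were called about as often as other genes. From ZT0 to ZT2, 168 members were higher and 161 lower at ZT2, 27.2% and 26.1% of the members beside 23.1% and 26.8% of all genes. At ZT6 against ZT0, 176 were higher and 177 lower (26.4% and 30.7% of all genes), and at ZT6 against ZT2, 114 and 122 (16.8% and 18.1%). The median log2 fold changes of the 2 prefixes lay between -0.01 and 0.05 in the 3 comparisons. Pp3c27_2310 was among the members that changed, with medians of 841, 574 and 1912 CPM at ZT0, ZT2 and ZT6 (ZT6 against ZT2 1.72 ± 0.26, edgeR adjusted p = 1.6e-06), and Pp3c27_2340 had medians of 1032, 1204 and 1814 CPM. Pp3c27_7650 fell at ZT6, by 2.56 ± 0.36 on the log2 scale against ZT2 (edgeR adjusted p = 3.44e-07). The sample codes of WT begin with Z at ZT0 and with A at ZT2, whereas WT at ZT6 holds both letters. With the code letter as a covariate, 251 members were called for ZT2 against ZT0 (329 without it), 348 for ZT6 against ZT0 (353) and 168 for ZT6 against ZT2 (236).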

How the data were processed

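The authors deposited 1 table of estimated counts (expected counts) per gene, with no normalization. Per the submitters' processing notes, Bowtie2 2.2.5, SAMtools 1.6 and HTSeq 2.0.2 were used. The genome build and the gene models were not given in the sources used here. In the deposited counts, 2.35% of entries were not whole (tolerance 1e-06), in 2085 genes, 25 of them Pp3c25 and 17 Pp3c27 members. The tests had been planned for whole counts, and values were rounded. The 5 summary lines (26.2% to 39.9% of a library) and 10 of the 57 columns, which match no sample used here, were left out. Low-count genes were removed by filterByExpr, and 15 group means of line and time were fitted to 47 libraries with edgeR 4.0.16 (R 4.3.3, limma 3.58.1), TMM scaling and the quasi-likelihood test. The common coefficient of biological variation came to 20.4%. The 20 comparisons were each adjusted over 18902 genes. Standard errors derive from the F statistic. DESeq2 1.42.0 was an alternative.

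Groups came from sample titles. Library 46-3 at ZT6 is line 46 by its title and line 48 by another label, and both readings were tried. The labels do not say that replicates came from separate cultures, so p-values measure only the spread between these libraries, which may be technical. Chi-square per gene over the 71 pairs of replicates lay between 2.44 and 34.1 (6.93 for the line 48 ZT2 pair), so that no library repeated another of its group. Libraries of different groups were not compared in this way. The code letters A and Z of the samples are not explained in the labels. Named genes were, per line and time, called members of average log2 CPM above 1 with every library outside the WT range (the 2 highest and 2 lowest fold changes for line 48, 1 each for other lines), the 3 most abundant members of each prefix, and the gene on either side of the minimum of 1 CPM. The members, lists and rules were chosen with earlier results of these data known. The tests were checked on simulated counts.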

Additional observations from a re-analysis of the deposited data

Results flagged for a closer look

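The test of the difference between the NDUFA5 KO lines (line 48 against line 46) called 356 members at ZT2, where 7.7% of all genes were called higher and 7.9% lower, and 2 members at ZT0, where 0.196% and 0.037% were. The difference of line 48 from WT was called different between times in 321 members for ZT2 against ZT0 (15.4% and 14.7% of all genes larger and smaller) and in 141 for ZT2 against ZT6 (2.21% and 1.79%). The counts of 356, 321 and 141 use the line 48 ZT2 libraries whose high values singled out the prefixes, so they are a description and not evidence. The same holds for Pp3c25_14209, which was named for its fold change in line 48 at ZT2 and had 3.17 on the log2 scale for ZT2 against ZT0 (SE 1.12, edgeR adjusted p = 0.0292). Its call against WT at ZT2 was lost without replicate 1 of line 48 (adjusted p = 0.107).

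In 75 groups of 4 to 8 WT libraries (prefix medians and named genes), 1 library lay far from the others in 14. The limits flag about 1 in 20 groups when values are normally distributed. CPM of rare transcripts need not be, so the count of 14 cannot be set against that rate. None of the 14 was a prefix median. Most flags were a single high library. For Pp3c25_14630 these were 4.69 CPM at ZT0 (group median 2.86), 83.6 CPM at ZT2 (50.0) and 92.8 CPM at ZT6 (4.96). For Pp3c25_6070 they were 7.11 CPM at ZT0 (1.89) and 19.7 CPM at ZT6 (7.38).

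At ZT2, replicate 4 of WT was high in Pp3c25_10500 (14.7 CPM, group median 2.13) and Pp3c27_3570 (12.8 CPM, 2.23), and replicate 2 in Pp3c25_14209 (1.97 CPM, 0.246). At ZT6, replicate 2 was high in Pp3c25_11360 (32.6 CPM, 15.6) and Pp3c27_7650 (20.5 CPM, 11.2), replicate 7 in Pp3c27_2340 (2297 CPM, 1815) and replicate 8 in Pp3c27_8200 (2.87 CPM, 0.795). At ZT0, replicate 2 was high in Pp3c27_5270 (1.99 CPM, 0.586), and replicate 4 was low in Pp3c27_870 (1.54 CPM, 7.63).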

How the results depend on the processing

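The count of members called stayed within 1.5 times its value with edgeR and TMM in all 20 comparisons with library totals, TMM without the prefixes Pp3c2, Pp3c25 and Pp3c27, a minimum of 5 CPM, genes of whole counts, the code letter as a covariate, library 46-3 at ZT6 in line 48, and the replicate block. With DESeq2 and with no filter on low counts it did so in 19, and for line 48 against line 46 at ZT0 it was 7 and 1 (2 with edgeR and TMM).

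The median of line 48 at ZT2 stayed within its replicate spread under every setting tried. That spread was wide (SD 0.218 for Pp3c25 and 0.174 for Pp3c27, n = 2), so staying within it is a weak check. Leaving out 1 library gave 0.481 to 0.791 for Pp3c25 and 0.531 to 0.776 for Pp3c27. At ZT0 the SD was 0.005 and 0.013, so that small changes exceeded it. At ZT0 the group means of -0.10 (Pp3c25) and -0.23 (Pp3c27) became -0.278 and -0.392 with library totals, -0.082 and -0.205 with TMM without the 3 prefixes, -0.060 and -0.181 at 5 CPM, -0.141 and -0.203 with whole counts, -0.069 and -0.183 with all WT libraries as base, and -0.018 and -0.141 relative to the other prefixes, the last setting chosen after the data were seen. At ZT6, library totals gave 0.081 (Pp3c25, -0.028 with edgeR and TMM, so that the sign changed) and 0.186 (Pp3c27, 0.076).

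Leaving out 1 library at a time, counts for line 48 against WT ranged from 199 to 320 at ZT2 and 65 to 144 at ZT6, against line 46 from 0 to 5 at ZT0 and 137 to 331 at ZT2, and for ZT2 against ZT6 from 38 to 141. They ranged from 65 to 161 and 24 to 91 for line 152 at ZT0 and ZT2, and from 133 to 212 and 62 to 144 for line 150 at ZT0 and ZT6. Medians of line 48 at ZT0 ranged from -0.148 to -0.072 and from -0.266 to -0.186. Without replicate 1 of line 48 at ZT2, Pp3c25_14870 (-0.187) and Pp3c27_2310 (-0.142) were below WT at that time, and without replicate 2 they had 0.446 and 0.784. The cause was not tested.

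Same-numbered libraries did not deviate together (29 pairs, correlation -0.296 to 0.343, 6 over 0.1). With the replicate block, 333 members were called for line 48 at ZT2 and 358 against line 46, and Pp3c27_3570 in line 48 at ZT2 had -4.71 with an edgeR adjusted p of 0.0555. The median library had 5659236 counts in genes, so that members near 1 CPM rest on a few counts per library.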
